A study of Homo sapiens with 12 samples.

Results

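The 42 genes described here act in nucleotide excision repair, in the Fanconi anemia pathway with its linked recombination, in translesion synthesis and in mismatch repair, the routes by which cells remove, bypass or sense platinum lesions in DNA. They were chosen by gene symbol, and a gene was kept if its mean level over the 12 libraries was at least 1 TPM. Each symbol matched 1 Ensembl gene and all 42 passed, out of 60902 genes listed and 13854 that passed the same filter. The symbols were listed with earlier results of these data known, so the choice was not blind to the values.

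RNA was sequenced from A549/DDP, a human lung adenocarcinoma line derived from A549 that resists cisplatin, in 4 groups of 3 libraries. CON cells stayed in RPMI-1640 with 2 g/L glucose and 10% fetal bovine serum, and DDP cells received cisplatin (DDP), a platinum drug that binds purines and crosslinks DNA. TRF cells had this normal medium for 6 h of every 24 h and medium without serum and glucose for the other 18 h, a culture model of time-restricted feeding, and TRF+DDP cells had both. All groups therefore carry the acquired resistance of 1 cell line. The resistant line is maintained in cisplatin and withdrawal before the experiment is not stated, so CON and TRF may not be drug-naive. The study gives a dose and exposure time of cisplatin in a figure legend that covers both sequencing and qPCR, and whether they hold for the sequenced cells is not clear. The study's methods name A549 tumor cells as the source of the RNA, whereas the sample labels name A549/DDP.

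In nucleotide excision repair, damage sensors bind distorted DNA, the helicases of TFIIH open it and a pair of nucleases cut out the damaged strand. Interstrand crosslinks are handled by the Fanconi anemia pathway, in which a core complex attaches ubiquitin to FANCD2 and FANCI, nucleases unhook the crosslink, translesion polymerases fill the gap and recombination restores the second duplex. Mismatch repair proteins recognize platinum adducts as distorted base pairs, and their loss is a known route to cisplatin tolerance. A549 cells are known for wild-type p53, and DDB2, XPC and POLH are established direct targets of human p53.

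Sequence upstream of 4 of these genes is shown because the comparisons below turn on them, DDB2 as the greatest change with cisplatin in normal medium, POLH and RAD51C as the greatest rises with cisplatin in TRF medium, and FANCC as the greatest fall in TRF+DDP. The sequences are the RefSeq reference (GRCh38.p14), given 5′ to 3′ on the gene's own strand, and capitals mark matches to the motifs named below.

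POLH (chr6:43576076-43576149, plus strand): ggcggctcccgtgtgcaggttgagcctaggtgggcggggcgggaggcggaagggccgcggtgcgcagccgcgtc
RAD51C (chr17:58692323-58692572, plus strand): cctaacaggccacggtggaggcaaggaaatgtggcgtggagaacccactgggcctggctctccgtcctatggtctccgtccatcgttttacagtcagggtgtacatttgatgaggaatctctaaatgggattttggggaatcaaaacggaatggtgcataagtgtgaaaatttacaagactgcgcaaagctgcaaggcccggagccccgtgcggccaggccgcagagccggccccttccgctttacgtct
DDB2 (chr11:47214204-47214453, plus strand): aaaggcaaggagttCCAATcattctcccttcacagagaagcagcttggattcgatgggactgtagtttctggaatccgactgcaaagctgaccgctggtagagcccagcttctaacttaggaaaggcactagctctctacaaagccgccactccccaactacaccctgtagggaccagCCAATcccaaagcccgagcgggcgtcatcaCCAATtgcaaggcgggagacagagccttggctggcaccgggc
FANCC (chr9:95317710-95317959, minus strand): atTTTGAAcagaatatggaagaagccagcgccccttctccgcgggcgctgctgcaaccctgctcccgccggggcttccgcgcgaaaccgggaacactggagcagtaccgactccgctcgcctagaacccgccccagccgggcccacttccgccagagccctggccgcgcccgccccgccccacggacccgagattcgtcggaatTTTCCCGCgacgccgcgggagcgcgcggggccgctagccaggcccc

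The RAD51C, DDB2 and FANCC stretches are the 250 bases before the annotated start, and the POLH stretch is the 74 bases from 36 to 109 before it, since annotated exons of POLH and of its neighbour XPO5 take the rest. In DDB2 the capitals are CCAAT boxes, which begin 236, 72 and 42 bases before the start. In FANCC they are TTTGAA, the core of the cell cycle element CHR, and TTTCCCGC, an E2F-type site that begins 46 bases before the start. The whole 250 bases before the start, annotated exons included, were searched on both strands in 41 of the 42 genes, all but FANCI, and in 27305 genes in all. CCAAT stood in 15 of the 41 (36.6%) against 33.0% of all genes, TTTCCCGC or TTTGGCGC in 2 of 41 (FANCC and XPC, 4.88%) against 1.96%, TTTGAA in 4 of 41 (9.76%) against 13.6%, and TGACGTCA, the cyclic AMP response element, in 2 of 41 (4.88%) against 1.75%. The p53 half-site was matched in 0 of 41 and in 5.5% of all genes. The motifs were chosen after the expression values were known, and a match describes letters only.

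Levels are in TPM, a unit that divides by transcript length and sums to the same total in every library. From 13029 to 14028 genes per library reached 1 TPM. Depth is unknown, since TPM keeps no read number. TRF replicate 3 stood apart with 6.37% of its TPM in mitochondrially encoded genes, against 8.70% and 8.84% in the other TRF libraries. The cells had keratins KRT7, KRT8 and KRT18 at 423 TPM or more in every library, EPCAM and CDH1 at 0.48 TPM or less, and 0 of 7 alveolar type 2 markers, 1 of 10 leukocyte markers, 1 of 8 fibroblast markers and 0 of 6 endothelial markers passed the filter of 1 TPM. In bulk RNA, fewer cells expressing a gene and less of its RNA per cell cannot be told apart.

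A change was called at a Benjamini-Hochberg adjusted p under 0.05 in limma, over all genes tested, together with a fold over 1.5 on the log2(TPM + 1) scale. The 5 pairwise comparisons share groups, so a gene that is extreme in TRF+DDP is called in several of them. The interaction is the change with DDP in TRF medium minus the change with DDP in normal medium, called on the adjusted p alone. Without TRF replicate 3, which stood apart above, 6 of the 42 genes were called in TRF+DDP against TRF, 4 in TRF against CON and 10 in the interaction, against 6, 3 and 9 with it. Of all genes, 15.8%, 24.9% and 26.9% were called without this library, against 16.3%, 25.6% and 29.8% with it. Means are given ± SD (n = 3), and the replicates are distinguished in the labels by number only, so p-values measure the spread between these libraries.

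TRF+DDP against DDP asks what the feeding regimen adds to cisplatin. FANCE and POLH rose and FANCC, BRIP1 and FANCG fell, 5 of 42 genes (11.9%), where 33.2% of all genes tested were called. By direction these were 2 higher (4.76%, against 11.8% of all genes) and 3 lower (7.14%, against 21.4%). The median of the 42 log2 fold changes was -0.05, against -0.10 over all genes, and the median size regardless of sign was 0.23 against 0.41. The difference between these shares was not tested. Of the 42 genes, 20 (47.6%) passed the adjusted p alone, against 65.4%.

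**Figure D1:**
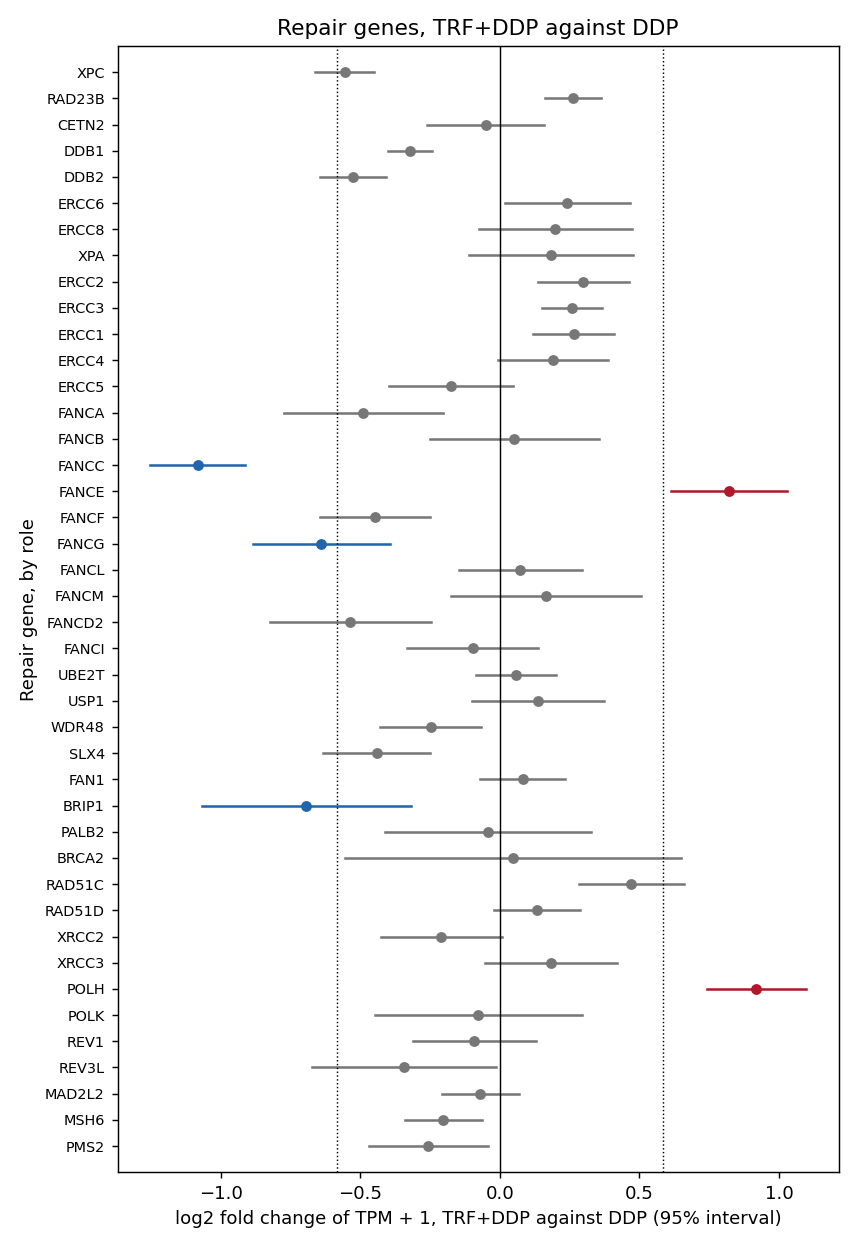
Log2 fold change of TPM + 1 in TRF+DDP against DDP (horizontal axis) for the 42 repair genes ordered by role (vertical axis), with points for the limma estimate, lines for its 95% interval and dotted lines at a fold of 1.5. FANCE and POLH (red) lie above the upper dotted line and FANCC, FANCG and BRIP1 (blue) below the lower one, while XPC at -0.56 and DDB2 at -0.53 stop just short of it.

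In the other comparisons, 6 of 42 genes were called in TRF+DDP against TRF (14.3%, against 16.3% of all genes), 4 higher (9.52%, against 10.2%) and 2 lower (4.76%, against 6.1%). TRF+DDP against CON gave 5 of 42 (11.9%, against 35.1%), 3 higher (7.14%, against 15.6%) and 2 lower (4.76%, against 19.5%). TRF against CON gave 3 of 42 (7.14%, against 25.6%), 1 higher (2.38%, against 8.41%) and 2 lower (4.76%, against 17.1%). The adjusted p alone was passed by 15, 26 and 25 of the 42 in these comparisons (35.7%, 61.9% and 59.5%, against 47.9%, 67.2% and 60.7%). DDP against CON gave 3 of 42 (7.14%) where only 2.01% of all genes were called, and all 3 were higher, against 1.86% of all genes higher and 0.159% lower. After TMM-style rescaling 1 of 42 (2.38%, DDB2) was called, against 1.49% of all genes. With DDP alone, limma gave 15 of the 42 higher (35.7%, against 21% of all genes) and 0 lower (against 6.19%) at p under 0.05 before adjustment, and the 3 DDP libraries lay above all 3 CON libraries in 18 of 42 genes (42.9%, against 25.7% of all genes) and below them in 0 (against 8.89%). At the adjusted p alone, DDP against CON gave 5 of 42 (11.9%), near the 12.2% of all genes. In all, 10 of the 42 genes were called in at least 1 pairwise comparison (23.8%, against 48.8% of all genes) and 36 passed the adjusted p in at least 1 (85.7%, against 84.5%).

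**Figure D2:**
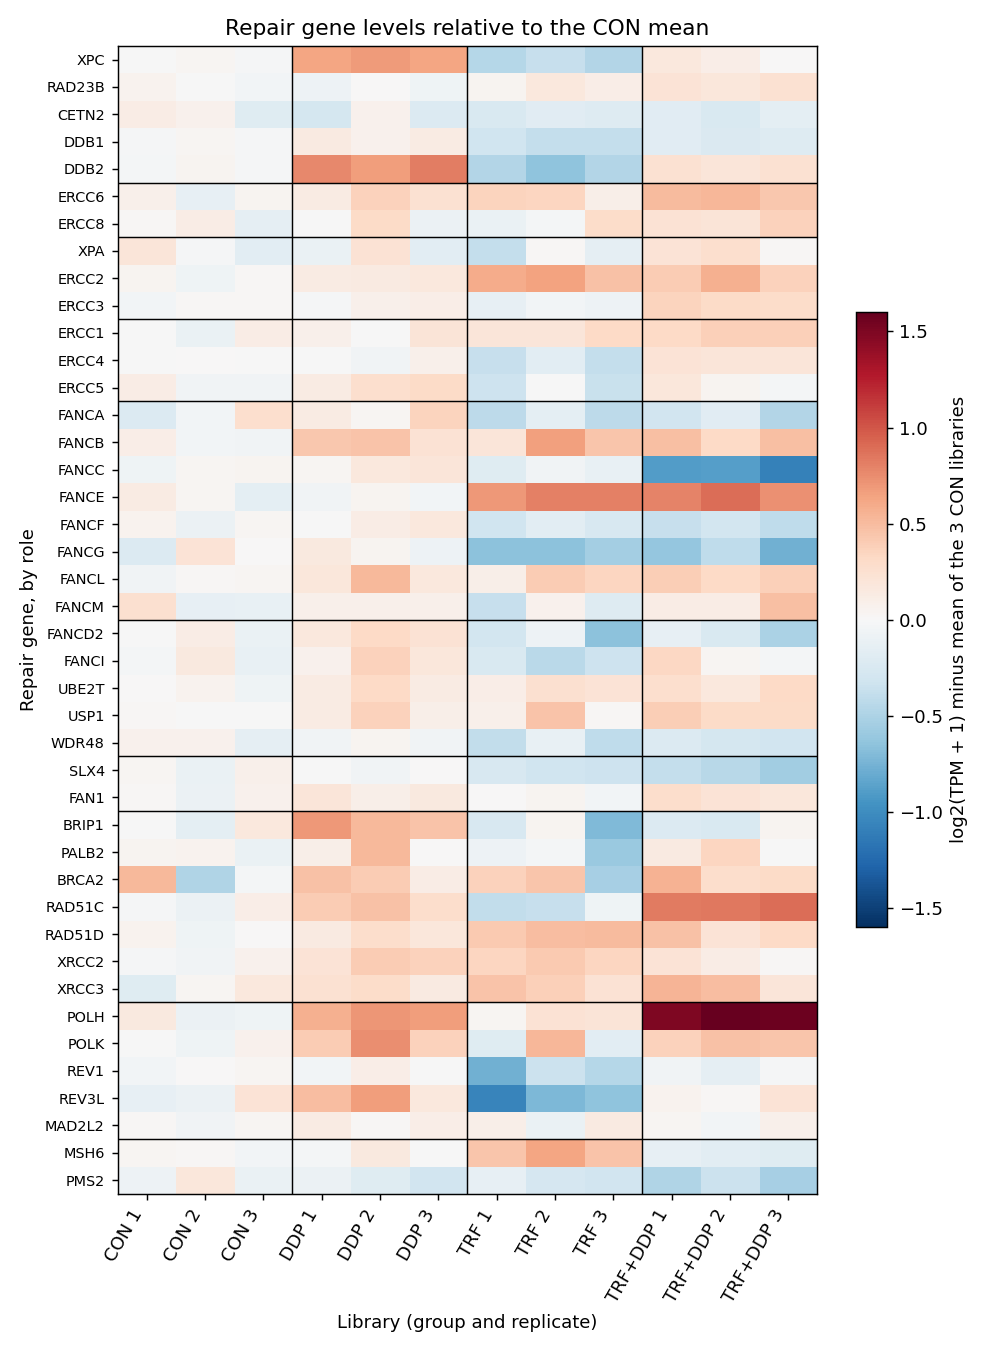
Level of each repair gene (rows, by role) in each of the 12 libraries (columns, by group and replicate), as log2(TPM + 1) minus the mean of the 3 CON libraries, red higher and blue lower. DDB2 and XPC are highest in DDP, POLH and RAD51C are highest in TRF+DDP, FANCC is lowest in TRF+DDP, and FANCE and FANCG differ by medium in both TRF groups.

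Levels ran over a wide range. DDB1, the adaptor of the CUL4 ubiquitin ligase, had the highest mean over the 12 libraries at 180 TPM, followed by its partner DDB2 at 153 TPM and by RAD23B, which stabilizes XPC, at 94.4 TPM. FANCB, FANCM and BRCA2 were lowest, at 1.35, 1.57 and 2.11 TPM. The summed TPM of the 42 genes did not overlap between groups, at 1125 to 1147 for CON, 1331 to 1361 for DDP, 1028 to 1060 for TRF and 1219 to 1252 for TRF+DDP, and DDB1, DDB2 and RAD23B make up the largest single shares of it.

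Of the 3 genes that rose with DDP alone, DDB2 and XPC are damage sensors. DDB2, which binds distorted bases and hands them to XPC, stood at 132, 139 and 133 TPM in the CON libraries and at 229, 213 and 237 TPM in DDP. In TRF it stood at 96.8, 85.9 and 96.6 TPM and in TRF+DDP at 159, 153 and 159 TPM. The 4 groups did not overlap, with DDP highest and TRF lowest. DDB2 rose with DDP in normal medium (log2 fold change 0.75, SE 0.054, limma adjusted p 7.31e-06) and by a like amount in TRF medium (0.75, adjusted p 3.63e-07), and the interaction was -0.00 with a 95% interval from -0.17 to 0.16. In TRF it was lower than in CON (-0.53, adjusted p 3.84e-06) and in TRF+DDP lower than in DDP (-0.53, adjusted p 2.60e-06), both short of the fold.

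XPC, the sensor that starts global genome repair, showed the same order of groups. Its level was 59.4, 61.2 and 59.2 TPM in CON, 93.4, 96.9 and 93.3 TPM in DDP, 43.3, 46.3 and 42.9 TPM in TRF, and 67.4, 64.4 and 60.3 TPM in TRF+DDP. DDP libraries were the highest and TRF libraries the lowest, and TRF+DDP overlapped CON. XPC rose with DDP in normal medium (log2 fold change 0.65, SE 0.049, limma adjusted p 9.98e-06), a call that a TMM-style rescaling ended (0.57). In TRF medium the change with DDP was 0.53 (adjusted p 3.43e-06), short of the fold, and the interaction of -0.12 (95% interval -0.27 to 0.03) did not pass. In TRF+DDP it was lower than in DDP (-0.56, adjusted p 7.04e-07), short of the fold and over it without TRF+DDP replicate 1 (-0.59). An antisense transcript, AC093495.1, shares 23.8% of the XPC exon bases and averaged 12.01, 17.3, 8.35 and 14.1 TPM across CON, DDP, TRF and TRF+DDP, and with no strand stated the reads of the 2 cannot be told apart.

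The other sensors moved little. DDB1 was 193 ± 4.03 TPM in CON, 209 ± 5.85 TPM in DDP, 150 ± 4.08 TPM in TRF and 167 ± 2.65 TPM in TRF+DDP, lower in TRF+DDP than in DDP (log2 fold change -0.32, limma adjusted p 6.59e-06) without reaching the fold. RAD23B was 86.9 ± 3.14 TPM in DDP and 104 ± 2.40 TPM in TRF+DDP (log2 fold change 0.26, adjusted p 2.60e-04). CETN2, the centrin bound to XPC, ranged from 26.6 to 31.1 TPM between group means and passed the adjusted p in no pairwise comparison. Of the transcription-coupled factors, ERCC6 was at 4.42 ± 0.414 TPM in CON and 6.6 ± 0.261 TPM in TRF+DDP (0.49, adjusted p 9.93e-04, short of the fold), and ERCC8 was between 10.5 and 12.9 TPM.

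On the log2(TPM + 1) scale, genes that open and cut the DNA stayed within the fold in every pairwise comparison. ERCC3, the XPB helicase of TFIIH, was at 37.5, 39.1 and 39.2 TPM in CON, 38.1, 41.0 and 41.6 TPM in DDP, 35.1, 37.5 and 36.3 TPM in TRF and 49.6, 48.1 and 47.3 TPM in TRF+DDP. TRF+DDP lay above all 9 other libraries, CON and DDP overlapped, and TRF lay below both, by as little as 37.47 against 37.51 TPM in CON. TRF against CON did not pass (-0.09, 95% interval -0.19 to 0.02, limma adjusted p 0.143). The interaction for ERCC3 was 0.35 (SE 0.069, limma adjusted p 0.00272). ERCC2, the XPD helicase of TFIIH, was instead high in both TRF groups, at 8.85 ± 0.383 TPM in CON, 9.89 ± 0.168 TPM in DDP, 13.6 ± 0.876 TPM in TRF and 12.4 ± 0.989 TPM in TRF+DDP (TRF against CON 0.57, adjusted p 3.25e-05, short of the fold and over it after either rescaling, without CON replicate 1 or without TRF replicate 3, at 0.59 to 0.71). With a pseudocount of 0.1, ERCC2 was called in TRF against CON. XPA, which verifies the lesion, was between 9.97 and 12.8 TPM and passed in no pairwise comparison.

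ERCC1, the partner of ERCC4 in the 5′ nuclease and a marker studied in platinum response, was at 58.0, 54.2 and 63.7 TPM in CON and 62.0, 58.4 and 67.5 TPM in DDP. It was at 67.3, 67.1 and 73.1 TPM in TRF and 73.2, 76.2 and 76.5 TPM in TRF+DDP. CON and DDP overlapped, and TRF+DDP lay above every other library, by as little as 73.15 against 73.08 TPM in TRF. TRF+DDP against TRF did not pass (0.12, 95% interval -0.02 to 0.27, limma adjusted p 0.154). TRF against CON was 0.24 (limma adjusted p 0.00860), short of the fold. The log2 fold change was 0.26 in TRF+DDP against DDP (SE 0.067, limma adjusted p 0.00387) and 0.09 in DDP against CON (95% interval -0.05 to 0.24). POLR1G (CD3EAP in the annotation), a subunit gene of RNA polymerase I on the opposite strand, shares 28.6% of the ERCC1 exon bases and averaged 5.43, 6.09, 15.3 and 18.6 TPM across CON, DDP, TRF and TRF+DDP. Its part in the ERCC1 values was not tested.

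ERCC4, the catalytic subunit XPF, was at 3.06, 3.10 and 3.06 TPM in CON, 3.07, 2.92 and 3.31 TPM in DDP, 2.16, 2.61 and 2.12 TPM in TRF and 3.72, 3.64 and 3.67 TPM in TRF+DDP. TRF was lowest, TRF+DDP highest, and CON and DDP overlapped between them. With DDP the change was 0.01 in normal medium and 0.51 in TRF medium, an interaction of 0.50 (SE 0.13, limma adjusted p 0.0118). ERCC5, the 3′ nuclease XPG, was between 10.5 and 14.8 TPM in group means, and since 63.2% of its exon bases are shared with the read-through gene BIVM-ERCC5, its level is uncertain.

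In the Fanconi core complex, which ubiquitinates FANCD2 and FANCI, the subunits parted. FANCC was at 12.7, 13.6 and 13.7 TPM in CON, 13.6, 15.1 and 15.3 TPM in DDP and 11.5, 12.7 and 12.1 TPM in TRF. In TRF+DDP it was at 6.71, 6.73 and 5.76 TPM. The TRF+DDP libraries were below all 9 others, by the greatest fall of any of the 42 genes in 3 comparisons. FANCC fell against DDP (log2 fold change -1.08, SE 0.078, limma adjusted p 1.10e-07), against TRF (-0.83, adjusted p 3.58e-06) and against CON (-0.95, adjusted p 3.10e-07). The interaction was -0.96 (SE 0.11, adjusted p 5.80e-05), the lowest of the 42.

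FANCE, the subunit that binds FANCC and FANCD2, moved the other way and with the medium. It was at 3.44, 3.12 and 2.62 TPM in CON and 2.90, 3.16 and 2.92 TPM in DDP, and at 5.57, 6.07 and 6.06 TPM in TRF and 5.99, 6.49 and 5.69 TPM in TRF+DDP. The 6 TRF-medium libraries lay above the 6 normal-medium libraries, with no separation by DDP. FANCE rose in TRF against CON (log2 fold change 0.77, SE 0.096, limma adjusted p 2.08e-05) and in TRF+DDP against DDP (0.82, adjusted p 8.68e-06). The change with DDP was -0.02 in normal medium (95% interval -0.23 to 0.19) and 0.03 in TRF medium, and the interaction was 0.05 (-0.24 to 0.35).

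FANCG, another core subunit, was low in both TRF groups, at 30.3, 41.2 and 35.6 TPM in CON, 39.6, 36.6 and 33.5 TPM in DDP, 22.0, 22.1 and 23.9 TPM in TRF and 22.7, 26.5 and 20.4 TPM in TRF+DDP. All 6 TRF-medium libraries lay below all 6 normal-medium libraries, and the CON libraries were spread the most. FANCG fell in TRF against CON (log2 fold change -0.62, SE 0.11, limma adjusted p 4.27e-04) and in TRF+DDP against DDP (-0.64, adjusted p 2.78e-04). These calls rest on the fold threshold: TRF against CON gave -0.52 without CON replicate 2, TRF+DDP against DDP gave -0.58 without DDP replicate 1 and -0.55 without TRF+DDP replicate 3, and a TMM-style rescaling gave -0.51 and -0.52, all of them short of the fold. In TRF+DDP against CON it fell by 0.60 (adjusted p 4.40e-04), with -0.49 without CON replicate 2 and -0.51 without TRF+DDP replicate 3. The adjusted p of these values was 0.00275 or less.

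Among the other core genes, FANCA (15.9 ± 2.92 TPM in CON, 17.9 ± 2.14 TPM in DDP, 12.3 ± 1.43 TPM in TRF, 12.4 ± 1.34 TPM in TRF+DDP) and FANCF (4.19 ± 0.272, 4.53 ± 0.343, 3.37 ± 0.221 and 3.05 ± 0.165) were lower in TRF+DDP than in DDP by -0.49 and -0.45, past the adjusted p and short of the fold. FANCL, the ubiquitin ligase, was at 14.1 ± 0.488 TPM in CON and 17.3 to 18.4 TPM in the other group means. FANCB was at 0.880 ± 0.122 TPM in CON and between 1.44 and 1.55 TPM elsewhere, a ratio of group means of 1.77 in TRF against CON that the pseudocount of 1 reduces to a log2 fold change of 0.43. FANCM, the translocase that anchors the complex, was between 1.22 and 1.96 TPM. Exon bases of FANCA (23.6%), FANCL (18.7%) and the nuclease gene FAN1 (24.3%) are shared with ZNF276, VRK2 and MTMR10 on the opposite strand, so their values are less certain where strand was not used.

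FANCD2 and FANCI, the pair that carries the ubiquitin mark, and their enzymes were not called. FANCD2 was at 21.5 ± 1.81 TPM in CON, 25.5 ± 1.36 TPM in DDP, 16.9 ± 3.45 TPM in TRF and 17.4 ± 2.38 TPM in TRF+DDP, with -0.54 against DDP (limma adjusted p 0.00335), which was -0.62 and over the fold without TRF+DDP replicate 1. FANCI was at 33.0 ± 3.34, 38.2 ± 4.19, 25.8 ± 1.75 and 35.8 ± 5.16 TPM in the same order. The ubiquitin-conjugating UBE2T (41.4 to 49.5 TPM between group means) and the deubiquitinase USP1 (11.2 to 14.4 TPM) had their highest group means in TRF+DDP. In both genes the TRF+DDP libraries overlapped those of DDP and of TRF, and neither passed the adjusted p against these groups. WDR48, the cofactor of USP1, was at 24.5 to 30.6 TPM and lower in TRF+DDP than in DDP (-0.25, limma adjusted p 0.0195). The nuclease scaffold SLX4 was at 4.30 ± 0.132 TPM in DDP and 2.91 ± 0.235 TPM in TRF+DDP (-0.44, adjusted p 7.65e-04), and the nuclease FAN1 at 9.58 ± 0.363 and 10.2 ± 0.369.

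In the recombination genes, RAD51C was the clearest rise. RAD51C, a subunit of the BCDX2 complex of homologous recombination, was at 28.3, 26.9 and 31.0 TPM in CON and 38.2, 40.1 and 35.2 TPM in DDP. It was at 21.5, 22.0 and 27.3 TPM in TRF and 51.7, 52.4 and 54.2 TPM in TRF+DDP. Only CON and TRF overlapped, and TRF+DDP was highest. RAD51C rose in TRF+DDP against TRF (log2 fold change 1.13, SE 0.086, limma adjusted p 5.92e-07) and against CON (0.86, adjusted p 2.09e-06). Against DDP it was higher by 0.47 (adjusted p 3.82e-04), short of the fold and over it after TMM-style rescaling (0.59). Its interaction was 0.75 (SE 0.12, adjusted p 7.11e-04), with a change with DDP of 0.38 in normal medium.

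**Figure D3:**
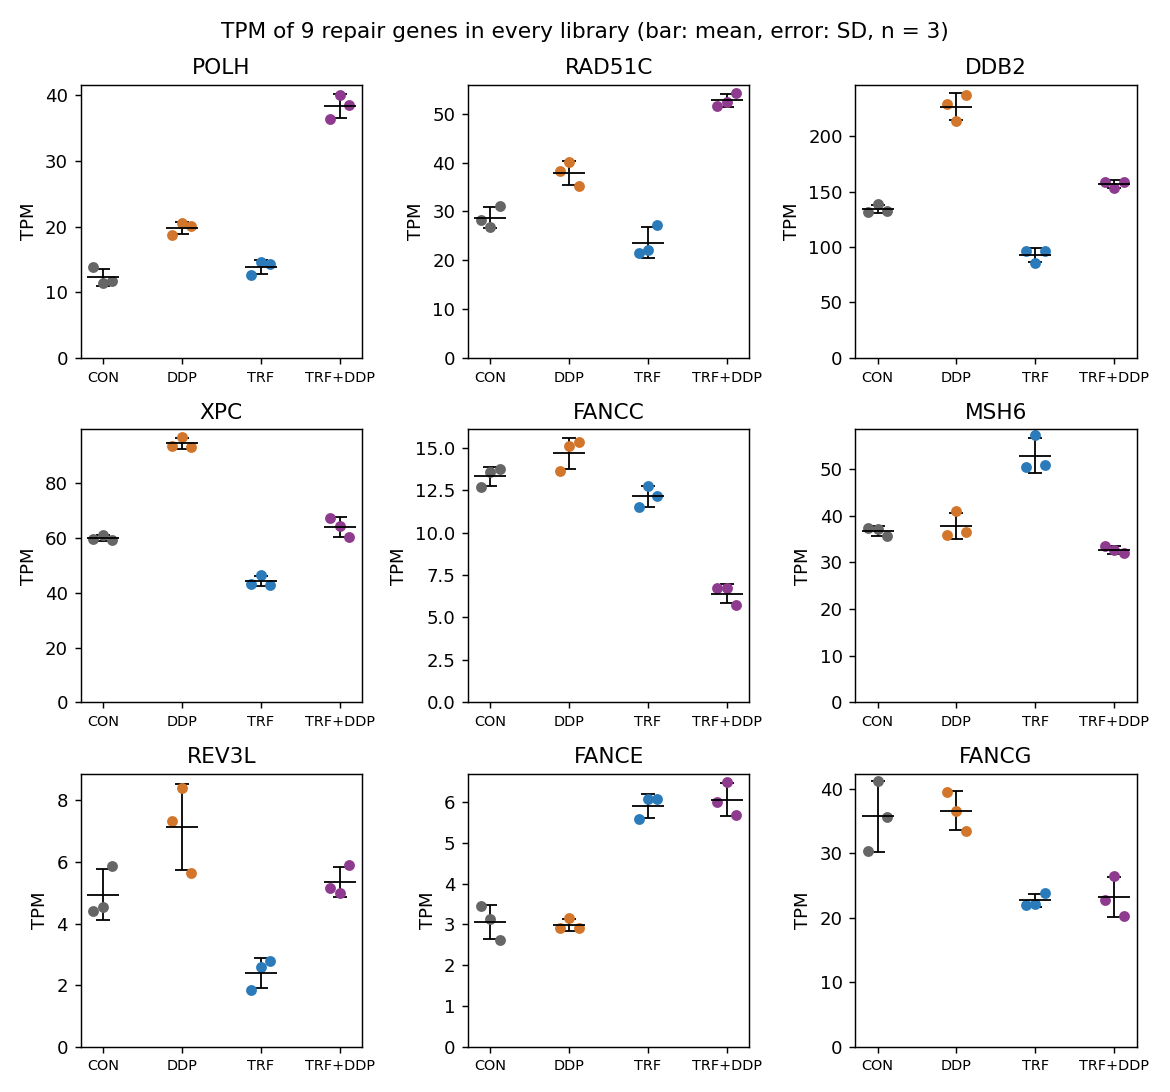
TPM (vertical axes, from 0) of 9 repair genes in every library of the 4 groups (horizontal axes), with dots for libraries, long bars for means and whiskers for the SD (n = 3). POLH and RAD51C are highest in TRF+DDP (38.3 and 52.8 TPM on average), FANCC is lowest there (6.40 TPM), and FANCE and FANCG split by medium with no separation by DDP.

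BRIP1, the helicase also known as FANCJ, was at 2.89, 2.51 and 3.38 TPM in CON, 5.31, 4.60 and 4.35 TPM in DDP, 2.27, 3.04 and 1.4 TPM in TRF and 2.36, 2.31 and 3.02 TPM in TRF+DDP. The DDP libraries were above all the others, which overlapped. BRIP1 fell in TRF+DDP against DDP (log2 fold change -0.69, SE 0.17, limma adjusted p 0.00337), a call that quantile normalization ended (-0.45), and with DDP in normal medium its change of 0.55 did not pass (adjusted p 0.0561). Relative to CON, TRF+DDP was at -0.14 (95% interval -0.51 to 0.23).

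XRCC2 and RAD51D, which form the BCDX2 complex with RAD51B and RAD51C, had interactions of the opposite sign to RAD51C. XRCC2 was at 1.83, 1.75 and 2.01 TPM in CON, 2.33, 2.80 and 2.69 TPM in DDP, 2.63, 2.83 and 2.63 TPM in TRF and 2.32, 2.12 and 1.91 TPM in TRF+DDP. Each treatment alone was above CON, and TRF+DDP overlapped CON. The TRF+DDP libraries lay below those of both single treatments, by as little as 2.32 against 2.33 TPM in DDP, and neither difference passed the adjusted p. Its change with DDP was 0.33 in normal medium and -0.25 in TRF medium (interaction -0.58, SE 0.14, limma adjusted p 0.00866). RAD51D was at 15.8, 14.5 and 15.4 TPM in CON, 17.0, 18.7 and 17.4 TPM in DDP, 20.6, 21.8 and 22.0 TPM in TRF and 21.4, 17.9 and 19.3 TPM in TRF+DDP. CON was lowest, and TRF+DDP overlapped both single treatments. The interaction of -0.34 (SE 0.10, adjusted p 0.0242) was lost under 6 of 17 alternatives, with no filter and without any 1 of 5 libraries (CON replicate 2, DDP replicate 2, TRF replicate 3, TRF+DDP replicate 2 or 3), with adjusted p of at most 0.0604. The read-through gene RAD51L3-RFFL on the same strand shares 8.01% of the RAD51D exon bases and averaged 10.37, 9.35, 11.1 and 5.91 TPM across CON, DDP, TRF and TRF+DDP, and its part in the RAD51D values was not tested. XRCC3 was at 22.7 to 30.4 TPM between group means and shares 76.7% of its exon bases with KLC1 on the opposite strand, so its level is uncertain. PALB2 (4.08 to 5.90 TPM) and BRCA2 (1.73 to 2.43 TPM), partners in homologous recombination, passed the adjusted p in no pairwise comparison.

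Translesion synthesis held the greatest rise. POLH, DNA polymerase eta, which inserts bases opposite platinum adducts, was at 13.8, 11.5 and 11.6 TPM in CON and 18.7, 20.6 and 20.0 TPM in DDP. It was at 12.6, 14.6 and 14.3 TPM in TRF and 36.4, 40.02 and 38.5 TPM in TRF+DDP. CON and TRF overlapped, DDP was above both, and TRF+DDP was above all. POLH rose with DDP in normal medium (log2 fold change 0.65, SE 0.081, limma adjusted p 3.01e-04), in TRF+DDP against TRF (1.41, adjusted p 6.07e-08), against CON (1.57, adjusted p 4.74e-09) and against DDP (0.92, adjusted p 7.10e-07). The call with DDP in normal medium was short of the fold after TMM-style rescaling (0.57) and quantile normalization (0.58). The interaction of 0.76 (SE 0.11, adjusted p 4.21e-04) was the highest of the 42.

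REV3L, the catalytic subunit of DNA polymerase zeta, which extends from the bases that polymerase eta inserts, was low in TRF alone. It was at 4.40, 4.54 and 5.88 TPM in CON, 7.34, 8.4 and 5.63 TPM in DDP, 1.84, 2.58 and 2.77 TPM in TRF and 5.14, 5.0 and 5.89 TPM in TRF+DDP. TRF lay below all the others, and the other groups overlapped. REV3L fell in TRF against CON (log2 fold change -0.81, SE 0.15, limma adjusted p 5.71e-04), a value of -0.58 and short of the fold after quantile normalization, and rose in TRF+DDP against TRF (0.91, adjusted p 3.81e-04). Its interaction of 0.46 did not pass (95% interval -0.00 to 0.93, adjusted p 0.127).

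REV1, the scaffold that brings polymerase zeta to the lesion, was at 10.8 ± 0.293 TPM in CON, 10.9 ± 0.672 TPM in DDP, 7.26 ± 1.23 TPM in TRF and 10.2 ± 0.534 TPM in TRF+DDP. As for REV3L, TRF was lowest. Its interaction of 0.43 (SE 0.14, limma adjusted p 0.0398) was lost under 9 of 17 alternatives, 8 of which left out 1 library (CON replicate 1, 2 or 3, DDP replicate 1 or 3, TRF replicate 1, TRF+DDP replicate 1 or 3), with adjusted p up to 0.0978. POLK, polymerase kappa, was at 4.98 ± 0.293 TPM in CON, 7.53 ± 1.25 TPM in DDP, 5.40 ± 1.96 TPM in TRF and 7.03 ± 0.268 TPM in TRF+DDP. MAD2L2, the regulatory subunit of polymerase zeta, was at 81.2 to 86.4 TPM between group means and passed in no pairwise comparison.

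The mismatch repair genes were MSH6 and PMS2. MSH6, which recognizes mismatches and platinum adducts as part of MutS alpha, was at 37.5, 37.2 and 35.6 TPM in CON, 35.9, 41.1 and 36.5 TPM in DDP, 50.4, 57.2 and 51.0 TPM in TRF and 33.6, 32.6 and 31.9 TPM in TRF+DDP. TRF was highest, TRF+DDP lowest, and CON and DDP overlapped. In TRF it was higher than in CON by 0.51 (limma adjusted p 2.04e-05), short of the fold and over it after TMM-style rescaling (0.63). MSH6 fell in TRF+DDP against TRF (log2 fold change -0.67, SE 0.063, limma adjusted p 3.61e-06), and its interaction was -0.71 (SE 0.090, adjusted p 1.14e-04). FBXO11 on the opposite strand shares 16.2% of the MSH6 exon bases and was at 20.0 to 24.5 TPM between group means, highest in CON. PMS2 was at 6.72 to 9.61 TPM, and since related copies such as PMS2P1 (22.6 to 30.5 TPM) share its sequence, its values are uncertain.

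The response to DDP in the 2 media was compared directly by the interaction, which rests on all 12 libraries. It passed in 9 of 42 genes (21.4%, against 29.8% of all genes), 5 higher in TRF medium (11.9%, against 13.5%) and 4 lower (9.52%, against 16.3%). The higher ones were POLH, RAD51C, ERCC4, REV1 and ERCC3 and the lower ones FANCC, MSH6, XRCC2 and RAD51D. The 2 DDP comparisons, DDP against CON and TRF+DDP against TRF, share no library. Across the 42 genes, which are not independent replicates, their log2 fold changes had Pearson's r of 0.520 and Spearman's rho of 0.406, with the same sign in 29 genes (69%). Across all 13854 genes r was 0.191 and rho 0.258, with the same sign in 8362 (60.4%).

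**Figure D4:**
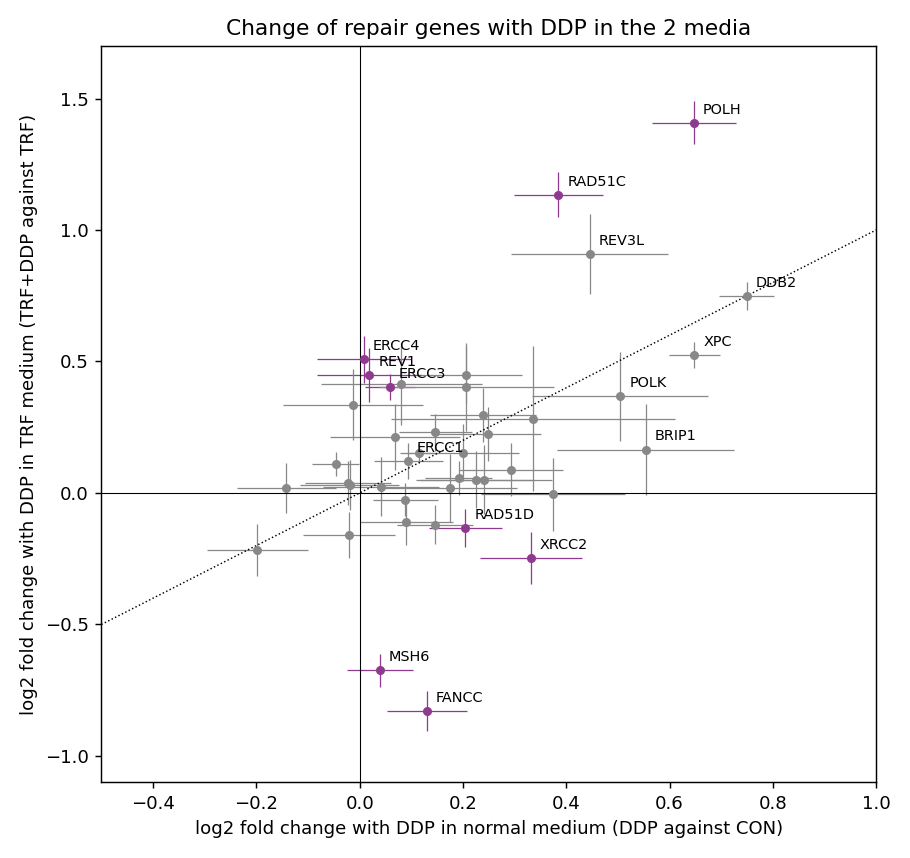
Log2 fold change with DDP in normal medium (horizontal axis, DDP against CON) and in TRF medium (vertical axis, TRF+DDP against TRF) for the 42 repair genes, with lines for 1 SE, a dotted line where the 2 are equal and purple for the 9 genes whose interaction passed. DDB2 lies on the dotted line at 0.75, POLH and RAD51C lie far above it, and FANCC and MSH6 lie far below it.

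DDB2, XPC and POLH were set beside 19 other direct p53 targets outside repair. With DDP in normal medium, 13 of the 19 rose (median log2 fold change 0.67), as did DDB2, XPC and POLH, where 1.86% of all genes rose. In TRF against CON, 1 of the 19 rose and 7 fell (median -0.41), where 8.41% and 17.1% of all genes did. In TRF+DDP against DDP, 14 of the 19 rose and 1 fell (median 0.79), among them CDKN1A, the p21 inhibitor of cyclin-dependent kinases, from 275 ± 6.46 to 946 ± 16.0 TPM, and GADD45A, a stress sensor, from 59.9 ± 2.44 to 219 ± 7.94 TPM. POLH went with them, whereas DDB2 and XPC were lower in TRF+DDP than in DDP by the amounts above. Of all genes, 11.8% rose and 21.4% fell in this comparison. The interaction passed in 18 of the 19, all higher (median 1.19), and of the 3 repair genes in POLH only. It passed and was higher in 13.5% of all genes. The summed TPM of the 19 was 1789 to 1904 for CON, 2934 to 3064 for DDP, 1425 to 1499 for TRF and 4232 to 4305 for TRF+DDP, and that of DDB2, XPC and POLH from 203 to 211, 331 to 350, 147 to 154 and 257 to 262. The lists were hand-written with earlier results of these data known.

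Most markers of G2 and mitosis fell in TRF+DDP against DDP, and those of S phase went both ways. Of 16 G2 and mitosis markers, 13 fell in TRF+DDP against DDP (median log2 fold change -0.97), including NUSAP1, a spindle protein, from 110 ± 11.1 to 29.4 ± 2.79 TPM, and CENPF, a kinetochore protein, from 28.0 ± 5.77 to 9.14 ± 1.06 TPM. Their summed TPM was 1278 to 1313 for CON, 1344 to 1376 for DDP, 1112 to 1164 for TRF and 669 to 735 for TRF+DDP. Of all genes, 11.8% rose and 21.4% fell in TRF+DDP against DDP. Of 16 S-phase and replication markers, 3 rose and 4 fell (median -0.35), including MCM6 of the replicative helicase from 52.0 ± 3.10 to 23.3 ± 1.00 TPM and GINS1 from 13.1 ± 0.860 to 5.5 ± 0.729 TPM, the 2 greatest of these changes. Their summed TPM was 1032 to 1060 for CON, 1116 to 1141 for DDP, 976 to 1046 for TRF and 1062 to 1113 for TRF+DDP. The TRF+DDP sums were lower than in DDP and above CON, by as little as 1061.55 against 1059.97 TPM. Gene by gene, 3 of the 16 rose and 5 fell in TRF+DDP against CON (median -0.12), where 15.6% and 19.5% of all genes did. Many Fanconi and recombination genes are known to be expressed in cycling cells, and the part of the cell cycle in the falls of FANCC, BRIP1 and FANCG was not tested.

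Repair genes outside the 42 were taken from 6 lists of 111 genes, of which 109 were tested. In TRF+DDP against DDP, 11 of the 109 rose and 14 fell, where 11.8% of all genes rose and 21.4% fell. With DDP alone 0 of 109 were called in limma, where 2.01% of all genes were. At p under 0.05 before adjustment, 30 of the 109 were above and 4 below CON, where 21% and 6.19% of all genes were. At the adjusted p alone, 15 were higher and 2 lower, where 12.2% of all genes passed in either direction. Of 33 other Fanconi and recombination genes, 4 rose and 4 fell in TRF+DDP against DDP, including RAD51B, the remaining BCDX2 subunit, from 6.62 ± 0.780 to 1.10 ± 0.424 TPM, and RMI2, of the BLM complex, from 23.0 ± 1.30 to 10.2 ± 0.486 TPM. Of 17 other translesion genes, 2 rose and 4 fell (median log2 fold change 0.18), with 8 higher and 7 lower at the adjusted p alone. Their summed TPM was 973 to 1024 for DDP and 1148 to 1172 for TRF+DDP. PCNA and POLD4, with means of 326 and 194 TPM over the 12 libraries, make up the largest single shares of it. The falls included HLTF and SHPRH, the ligases that extend ubiquitin chains on PCNA, from 22.9 ± 2.26 to 10.2 ± 0.833 TPM and from 2.38 ± 0.261 to 1.03 ± 0.0819 TPM. HLTF was already lower in TRF than in CON (log2 fold change -0.92) and changed by -0.04 in TRF+DDP against TRF. SHPRH was at -0.49 in TRF against CON, short of the fold, and at -0.07 in TRF+DDP against TRF. Of 23 base excision and single-strand break genes, 4 rose and 4 fell, including the glycosylases NEIL3, from 24.8 ± 1.06 to 8.70 ± 0.514 TPM, and NEIL1, from 6.06 ± 0.387 to 2.32 ± 0.208 TPM. NEIL1 was already lower in TRF than in CON (log2 fold change -1.40). Of 20 other excision repair genes 1 was called, CUL4B, a cullin of the DDB2 ligase. CUL4B fell from 24.8 ± 1.85 to 12.5 ± 1.26 TPM. It was already lower in TRF than in CON (log2 fold change -0.53, short of the fold) and changed by -0.08 in TRF+DDP against TRF. CUL4A, in the same list with a mean of 56.9 TPM, was not called. Of 10 end-joining genes 1 was called, LIG4, which rose from 3.16 ± 0.597 to 8.03 ± 0.644 TPM. Of 6 other mismatch repair genes 1 fell.

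The genes differ in length on the chromosome. FANCC spans 327.7 kb, REV3L 184.7 kb and BRIP1 182.3 kb, the 3 longest of the 42 in GENCODE release 29 (GRCh38), and FANCF with 3.0 kb the shortest. Across the 42 genes the span and the change in TRF+DDP against DDP had a Spearman's rho of -0.18, and across 11874 protein-coding genes -0.32. In TRF+DDP against TRF the signs differed, with 0.24 across the 42 and -0.26 across the protein-coding genes. These are correlations across genes that share their libraries. In the same annotation POLH lies at chr6:43576150-43615660 on the plus strand, RAD51C at chr17:58692573-58735611 on the plus strand, DDB2 at chr11:47214465-47239240 on the plus strand and FANCC at chr9:95099054-95426796 on the minus strand, so the FANCC start used for the sequence above lies inside the annotated gene.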

How the data were processed

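Libraries were made from oligo(dT)-selected RNA. The authors cleaned the reads (SeqPrep, sickle), mapped them (HISAT2), assembled transcripts (StringTie) and deposited TPM per library with 4 group means, which were not used here. The submitters' notes also name edgeR. The sources used here give no version, genome build, quantification tool or use of strand. Read counts are not analysed here, so depth is unknown and precision comes from 3 libraries a group.

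TPM was taken as log2(TPM + 1). The 13854 of 60902 genes that averaged 1 TPM or more were fitted in limma 3.58.1 (R 4.3.3; trend, robust) with the 4 groups in 1 fit, and p-values were adjusted by Benjamini-Hochberg in each of 6 comparisons. The fit was tested on simulated data. Thresholds were those of the study (adjusted p under 0.05, fold over 1.5). The authors used DESeq2 on read counts. Tables were made in Python 3.11.15.

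The 42 genes, the other lists, the motifs and the tests were chosen with earlier results of these data known. Values in every library are given for genes called in TRF+DDP against DDP, the 3 largest changes called in each other pairwise comparison, the 8 interactions with the lowest adjusted p, and DDB2, XPC, POLH and ERCC1. From the other lists at most 2 called genes each are named, and some are left out. Gene models come from GENCODE release 29 and upstream sequence from RefSeq.

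The alternatives were TMM-style scaling (trims of 0.3 and 0.05), quantile normalization, a pseudocount of 0.1, no filter, a replicate block, no fold threshold, a fit of the compared groups alone, and leaving out each library.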

Additional observations from a re-analysis of the deposited data

Results flagged for a closer look

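The change with DDP differed between the 2 media, by the interaction term in limma, in 9 of the 42 genes (21.4%, against 29.8% of all genes). The difference on the log2 scale was -0.96 for FANCC (adjusted p 5.80e-05), -0.71 for MSH6 (adjusted p 1.14e-04) and -0.58 for XRCC2 (adjusted p 0.00866), in which DDP gave 0.13, 0.04 and 0.33 in normal medium and -0.83, -0.67 and -0.25 in TRF medium. It was -0.34 for RAD51D (adjusted p 0.0242). In the other direction it was 0.76 for POLH (adjusted p 4.21e-04), 0.75 for RAD51C (adjusted p 7.11e-04), 0.50 for ERCC4 (adjusted p 0.0118), 0.43 for REV1 (adjusted p 0.0398) and 0.35 for ERCC3 (adjusted p 0.00272). For POLH and RAD51C the TRF+DDP libraries were above all other libraries, and for FANCC and MSH6 below all of them.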

How the results depend on the processing

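Of 31 changes called in the 42 genes, 22 kept the call under every alternative run and 9 lost it under at least 1, and 0 of 571 recomputed values reversed. Not every one of these values could change. Dropping the fold threshold only loosens the rule on the same pairwise fit, so no call could be lost there. Leaving out a library outside the compared groups keeps the pairwise log2 fold change as it was. Without the fold threshold the counts called were 20 in TRF+DDP against DDP, 15 against TRF, 26 against CON, 25 in TRF against CON and 5 in DDP against CON. DDP against CON fell from 3 to 1 (DDB2) with TMM-style scaling, and TRF against CON rose from 3 to 5 with a pseudocount of 0.1, by ERCC2 and FANCB. With that pseudocount TRF+DDP against TRF rose from 6 to 8, by ERCC4 and FANCM, and TRF+DDP against CON from 5 to 6, by FANCB. Of all genes, it called 30.4% in TRF against CON, 20.5% in TRF+DDP against TRF and 39.9% in TRF+DDP against CON. With the pseudocount of 1 these shares were 25.6%, 16.3% and 35.1%. Rescaling moved the median of all genes in TRF against CON from -0.11 to -0.01 (TMM-style) or 0.00 (quantile) and in TRF+DDP against DDP from -0.10 to 0.00 or 0.01. The genes called higher and lower then went from 1 and 2 to 3 and 1 or 4 and 0 in TRF against CON, from 2 and 3 to 3 and 2 or 2 and 2 in TRF+DDP against DDP, and from 3 and 2 to 3 and 1 or 5 and 2 in TRF+DDP against CON. Of all genes, 25.1% or 23.5%, 32.6% or 32.1% and 35.3% or 35% were called in these comparisons, in the same order. Leaving out 1 library gave 4 to 7 genes in TRF+DDP against DDP, 6 to 7 against TRF, 4 to 5 against CON, 2 to 4 in TRF against CON, 3 to 3 in DDP against CON and 7 to 10 for the interaction. The shares of all genes called for TRF+DDP were 32.8% to 33.4% against DDP, 15.6% to 17.7% against TRF and 34.7% to 35.5% against CON. They were 24.9% to 27.2% in TRF against CON, 1.82% to 2.1% in DDP against CON and 24.9% to 32% for the interaction. Without CON replicate 2, TRF against CON had 2, FANCG being lost. Without TRF replicate 2, POLK was called against TRF (0.61), REV1 in TRF against CON (-0.61) and RAD23B in the interaction (0.19). In the interaction BRIP1 (-0.59) and ERCC2 (-0.32) were called without TRF replicate 3, and ERCC2 (-0.33) without TRF+DDP replicate 2. Libraries with the same replicate number did not deviate together (18 correlations from -0.082 to 0.0795), and the replicate block left the counts at 5, 6, 5, 3, 3 and 9. The design has 3 libraries a group, unknown depth and cisplatin exposure before the experiment that is not stated.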
